A study of Homo sapiens with 7 samples.

Results

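Cytosolic ribosomal proteins build, with ribosomal RNA, the machine that translates messenger RNA, and their genes are among the most strongly transcribed in dividing cells. They were taken here as every listed gene whose symbol is RPL, RPS or RPLP followed by its number, with or without a closing letter or L, plus RPSA. The rule found 86 members among 33117 listed genes, 53 with large subunit symbols and 33 with small subunit symbols, each with 1 identifier. Of these, 81 averaged at least 1 TPM (a level per transcript length that sums to the same total in each library) and were tested among 16724 genes. The 5 others, RPL3L, RPL10L, RPL12L3, RPS10L and RPS17L, lay near 0, with no library above 0.521 TPM.

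The libraries came from 769-P, a long-established line of human clear cell kidney cancer, grown in RPMI medium with serum. There were 4 libraries of Lat-M cells, which the series title calls latent metastatic, and 3 of PA cells, whose name is not spelled out in the labels. The Lat-M libraries are numbered 2-1 and 2-2, called Lat-M2 here, and 1-1 and 1-2, called Lat-M1. What the first number means, whether a pair is 1 derived line and whether replicates are separate cultures is not stated, so p-values rest on a spread between libraries that may be technical. Of 8 renal epithelial markers 6 averaged at least 1 TPM, while PAX2 lay between 0.633 and 1.63 TPM over the libraries and CA9, a target of hypoxia factors, was listed at 0 in 5 of 7 libraries. PAX8, a kidney lineage factor, averaged 77.8 ± 1.67 TPM in Lat-M2, 84.2 ± 5.17 in Lat-M1 and 71.5 ± 5.18 in PA (SD, n = 2, 2 and 3). The keratin KRT8 averaged 193 ± 17.7 TPM in Lat-M2, 91.9 ± 4.41 in Lat-M1 and 128 ± 15.1 in PA, and passed the test in both directions (0.59, adjusted p = 0.0164, and -0.47, adjusted p = 0.00998, over PA, limma). KRT18 was higher in Lat-M2 (0.60, adjusted p = 0.00169) and LHX1 lower in Lat-M1 (-0.63, adjusted p = 0.00173, limma). Markers of endothelium and erythroid cells did not exceed 0.0831 TPM in sum. The 5 fibroblast and pericyte markers summed to 3.10 to 4.09 TPM in Lat-M2, 20.0 to 21.7 in Lat-M1 and 1.41 to 1.74 in PA, nearly all of it COL1A1, with LUM and DCN at or near 0. The 3 listed leukocyte markers summed to 39.7 to 41.8 TPM in Lat-M2, 14.1 to 15.5 in Lat-M1 and 45.6 to 48.2 in PA, nearly all of it CD68, with PTPRC at or near 0. The part of these markers in the results was not tested.

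In a human cell each ribosome carries 1 copy of nearly every one of these proteins, and unbuilt proteins are degraded, so their genes are usually expressed as a block. Nearly all of their messengers begin with a terminal oligopyrimidine (TOP) tract, a C followed by a run of C and T bases, through which mTOR and LARP1 set their translation. A few members are paralogs, encoded elsewhere in the genome, that can stand in for a standard protein in some tissues.

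The starts of the genes on which the results turn are printed because they separate the standard members from most paralogs. They are RefSeq starts on GRCh38.p14, whereas the submitters' notes name hg19, and each line runs 5′ to 3′ on the transcript's strand, with 20 bases before the start and 25 from it on. Capitals mark the longest run of C and T of at least 8 bases that reaches within 10 bases of the start. A line with no capitals holds no such run in that window.
RPLP0: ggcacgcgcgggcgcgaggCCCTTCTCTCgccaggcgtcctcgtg
RPLP1: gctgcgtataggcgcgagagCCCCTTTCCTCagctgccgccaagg
RPLP2: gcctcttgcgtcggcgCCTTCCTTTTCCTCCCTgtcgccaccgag
RPL4: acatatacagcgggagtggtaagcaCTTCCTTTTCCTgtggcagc
RPS12: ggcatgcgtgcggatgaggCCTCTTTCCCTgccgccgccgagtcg
RPL22: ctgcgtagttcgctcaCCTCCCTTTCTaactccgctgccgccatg
RPL22L1: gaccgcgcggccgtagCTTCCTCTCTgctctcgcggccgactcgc
RPL26: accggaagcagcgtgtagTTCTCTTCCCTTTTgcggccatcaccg
RPL26L1: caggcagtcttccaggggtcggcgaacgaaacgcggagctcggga
RPS27: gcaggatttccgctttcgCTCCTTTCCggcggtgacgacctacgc
RPS27L: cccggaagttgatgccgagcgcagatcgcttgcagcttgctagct
RPL7L1: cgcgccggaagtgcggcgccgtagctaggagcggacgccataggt
RPS4X: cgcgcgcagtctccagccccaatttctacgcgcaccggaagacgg
They lie at chr12:120201087-120201131 (RPLP0, minus strand), chr15:69452798-69452842 (RPLP1, plus), chr11:809947-809991 (RPLP2, plus), chr15:66504831-66504875 (RPL4, minus) and chr6:132814549-132814593 (RPS12, plus). RPL22 lies at chr1:6199571-6199615 (minus) and its paralog RPL22L1 at chr3:170870171-170870215 (minus), RPL26 at chr17:8383169-8383213 (minus) and RPL26L1 at chr5:172958709-172958753 (plus). RPS27 lies at chr1:153990742-153990786 (plus), RPS27L at chr15:63157453-63157497 (minus), RPL7L1 at chr6:42879596-42879640 (plus) and RPS4X at chrX:72277224-72277268 (minus).

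Of the 67 members with a RefSeq entry, 55 had such a run (82.1%), against 1759 of 8885 other tested genes (19.8%). Where a gene had several starts, the one with the longest run was taken for members and other genes alike. Among the paralogs with an entry, 1 of 5 had a run, RPL22L1, while RPL26L1, RPS27L, RPL7L1 and RPL10L had none. Among the other members 54 of 62 had one. The window of RPS4X held no run longer than 5 bases. The search covered the transcript strand alone, and its letters say nothing about transcripts that start elsewhere.

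The summed level of the block was close to the same in all groups once libraries were put on a common scale. The 86 members summed to 30085 ± 810.2 TPM in Lat-M2, 32440 ± 1627 in Lat-M1 and 28227 ± 249.2 in PA (SD, n = 2, 2 and 3), which is 2.79% to 3.36% of a library. Another part of these libraries moved at the same time: 4 structural non-coding RNAs (RN7SL1, RN7SL2, RN7SK and RMRP) took 22.9% to 27.7% of TPM in Lat-M2, 18.6% to 21.9% in Lat-M1 and 29.5% to 31.8% in PA, and because TPM has a fixed sum, every other gene is scaled by what they take. After scaling by the median ratio over genes, the members summed to 28886 ± 909.8 in Lat-M2, 30597 ± 244.0 in Lat-M1 and 30149 ± 610.5 in PA. With those 4 RNAs left out and the rest rescaled, the sums were 40280 ± 760.4 in Lat-M2, 40654 ± 868.5 in Lat-M1 and 40640 ± 396.8 in PA. The log2 ratio of the sums for Lat-M1 over PA was therefore 0.20 in TPM, 0.021 after scaling and 0.00051 without the structural RNAs. For Lat-M2 over PA it was 0.092, -0.062 and -0.013 on those scales, so its sign depended on the scale.

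**Figure D1:**
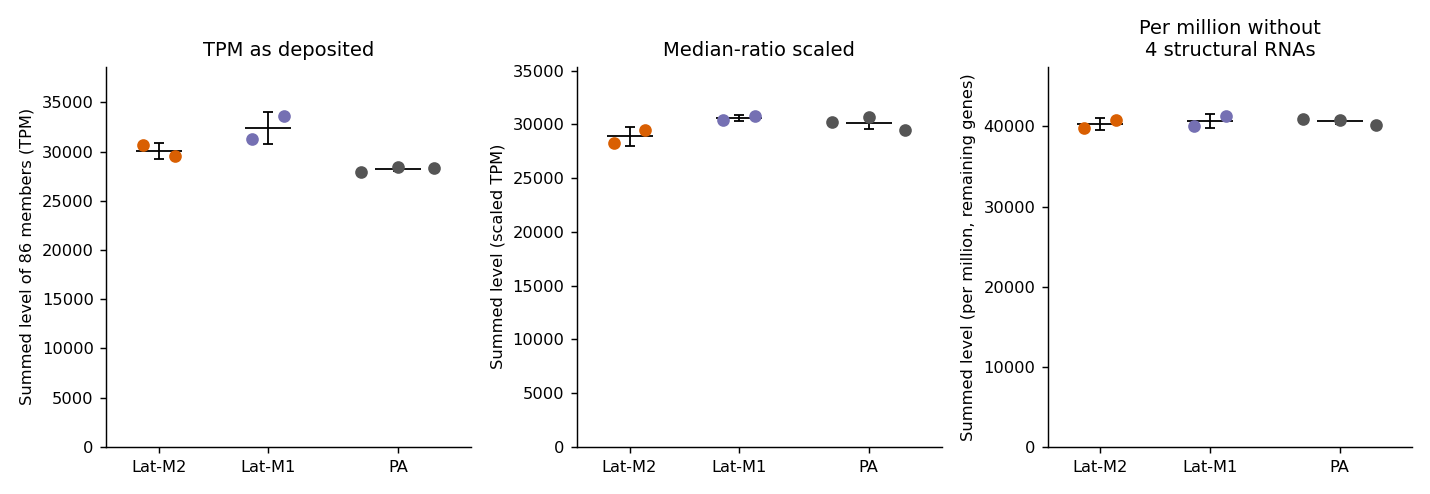
Summed level of the 86 members in each library (points; horizontal line and bar, mean and SD), in TPM as deposited, after median-ratio scaling, and with 4 structural RNAs left out and the rest rescaled to the same sum. The Lat-M1 mean of 32440 TPM lies above the PA mean of 28227 TPM on the first scale, and the group means on the third lie between 40280 and 40654.

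The median of all tested genes carried the same shift, 0.14 for Lat-M2 over PA and 0.16 for Lat-M1 over PA on the log2(TPM + 1) scale, and 0.00 for both after scaling. Member changes are therefore given on both scales, and scaled changes are relative to the median gene. The small subunit symbols summed to a slightly smaller part of the large subunit symbols in Lat-M than in PA: the ratio of the sums was 0.889 ± 0.000495 in Lat-M2, 0.895 ± 0.00893 in Lat-M1 and 0.927 ± 0.00192 in PA, with no overlap between Lat-M and PA libraries. This ratio does not depend on the scale and is given as a description, with no test.

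Within the block, levels spanned a wide range. The tested members ran between 5.36 TPM for RPL36A and 2551 TPM for RPS12 (means of 7 libraries), with a median of 286 TPM and 67 members at 100 TPM or more. The 5 most abundant held 23.4% of the members' TPM. RPS12, a small subunit protein, stood at 2442 and 2290 TPM in Lat-M2, 2897 and 3156 in Lat-M1 and 2340, 2397 and 2333 in PA. RPS18 had 1073 and 1058 TPM in Lat-M2, 1324 and 1434 in Lat-M1 and 1042, 1061 and 1069 in PA, with Lat-M1 apart from the others. RPL19 had 1032 and 1032 TPM in Lat-M2, 1043 and 1092 in Lat-M1 and 934, 958 and 962 in PA, with PA lowest. Low levels of standard members need care, because near-identical pseudogenes can take their reads: the 31 listed pseudogenes of RPL21 averaged 19.6 TPM in sum, against 18.3 TPM for RPL21 itself, and the 13 of RPL36A averaged 11.3 TPM, against 5.36 TPM. All 86 members together had pseudogenes summing to 780 ± 27.0 TPM in Lat-M2, 785 ± 51.9 in Lat-M1 and 663 ± 26.8 in PA. No pseudogene was listed under the names of RPL39L, RPS27L, RPL26L1, RPL22L1 or RPLP2, and 1 was for RPLP1, at 1.27 TPM.

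Lat-M1 differed from PA in a part of the block, and the rises took in every paralog tested as a member and every stalk gene. In TPM, limma with Benjamini-Hochberg adjustment over all genes called 38 of 81 members changed (44.8% of all genes tested were), 37 of them higher and 1 lower, beside 33.2% of all genes higher and 11.6% lower. After scaling, 32 members were changed (46.9% of all genes), 22 higher and 10 lower, beside 23.9% and 23% of all genes. Among 2915 other genes at 50 TPM or more, the level of most members, 45.8% were higher and 13.2% lower in TPM, and 32.5% and 29.5% after scaling. The members' 37 of 81 is 45.7%, close to the share of those genes higher in TPM. All 22 were also among the 37, and the 1 lower in TPM, RPS4X, was also lower after scaling. Without the 4 structural RNAs the split was 20 higher and 16 lower. The share of all genes on that scale is not given, so this split is not a result about the members. The members' median log2 fold change was 0.18 in TPM, beside 0.16 for all genes, and 0.01 after scaling, beside 0.00. Their spread was narrower than that of all tested genes (SD of log2 fold changes 0.27 against 0.64). The scaled count was 15 without Lat-M1-1 and 18 without Lat-M1-2.

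The ribosomal stalk is the flexible arm of the large subunit that recruits translation factors; RPLP0 is its base and RPLP1 and RPLP2 form its paired tips. RPLP1 had 511 and 539 TPM in Lat-M1, against 233, 300 and 279 TPM in PA. RPLP2 had 616 and 660 TPM in Lat-M1, against 416, 488 and 456 TPM in PA. RPLP0 had 745 and 784 TPM in Lat-M1, against 574, 602 and 567 TPM in PA. For each of the 3 genes both Lat-M1 libraries lay above every PA library, as they did for 48.9% of all tested genes. The log2 fold changes were 0.96 ± 0.14 for RPLP1 (SE; adjusted p = 0.00200), 0.49 ± 0.088 for RPLP2 (0.00344) and 0.40 ± 0.059 for RPLP0 (0.00151) in the limma fit. After scaling they were 0.78, 0.32 and 0.22, with adjusted p = 0.00271, 0.00986 and 0.00904 in the limma fit, so 3 of 3 stalk genes rose on both scales. The tip and the base did not move by equal amounts: RPLP1 stood at 0.686 ± 0.00100 of the level of RPLP0 in Lat-M1 and 0.465 ± 0.0514 in PA (SD, n = 2 and 3).

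Of the paralogs among the members, 5 were tested and 5 of 5 rose in Lat-M1 on both scales, with a median log2 fold change of 0.71 in TPM and 0.53 after scaling. RPL36AL, a paralog of RPL36A that the symbol rule leaves out, did not rise. It had 256 and 262 TPM in Lat-M1, against 261, 255 and 258 TPM in PA (0.0077, adjusted p = 0.930, limma). After scaling it was lower (-0.17, adjusted p = 0.00962, limma). RPL39L, known as a testis-enriched version of the exit tunnel protein RPL39, had 17.9 and 18.3 TPM in Lat-M1, against 6.88, 7.31 and 7.04 TPM in PA. The difference of 1.24 ± 0.067 on the log2(TPM + 1) scale (adjusted p = 1.28e-05, limma) corresponds to a 2.55-fold ratio of mean TPM. RPL26L1, a close copy of RPL26, had 101 and 112 TPM in Lat-M1, against 53.6, 53.2 and 50.4 TPM in PA, a log2 fold change of 1.00 ± 0.073 (adjusted p = 5.05e-05, limma). RPS27L, a copy of RPS27, had 137 and 150 TPM in Lat-M1, against 89.2, 80.3 and 93.3 TPM in PA (log2 fold change 0.71 ± 0.092, adjusted p = 0.000816, limma). RPL22L1, the paralog of RPL22, had 367 and 404 TPM in Lat-M1, against 273, 261 and 256 TPM in PA (0.55 ± 0.073, adjusted p = 0.000922, limma). RPL7L1, which works in ribosome assembly, had 60.5 and 63.9 TPM in Lat-M1, against 42.6, 41.8 and 40.7 TPM in PA (0.57 ± 0.0755, adjusted p = 0.000898, limma). In all 5 genes both Lat-M1 libraries lay above every PA library in TPM, as they did for 48.9% of all tested genes. Each of the 5 calls held when any 1 PA library was left out.

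The partners RPL39, RPL26, RPL22 and RPS27 did not pass the test, while RPL7, the namesake of RPL7L1, rose in TPM (0.34 ± 0.075, adjusted p = 0.00886, limma) and did not pass after scaling (adjusted p = 0.219). RPL39 had 252 and 282 TPM in Lat-M1, against 323, 264 and 317 TPM in PA, and 7 of its pseudogenes together added 83.5 TPM on average over all libraries. RPL26 had 647 and 691 TPM in Lat-M1, against 605, 630 and 637 TPM in PA (log2 difference 0.10, adjusted p = 0.181, limma). RPL22 had 39.0 and 41.1 TPM in Lat-M1, against 38.4, 39.5 and 37.7 TPM in PA (0.05, adjusted p = 0.521, limma). The ratio of RPL26L1 to RPL26 was 0.159 ± 0.00404 in Lat-M1 and 0.0841 ± 0.00471 in PA (SD, n = 2 and 3). RPL39L to RPL39 was 0.0678 ± 0.00427 in Lat-M1 and 0.0237 ± 0.00343 in PA, and RPL22L1 to RPL22 was 9.62 ± 0.303 in Lat-M1 and 6.83 ± 0.260 in PA. RPS27L to RPS27 was 10.4 ± 0.240 in Lat-M1 and 7.06 ± 0.524 in PA. These ratios within a library do not depend on the scale, and in each of the 4 the Lat-M1 libraries lay above all PA libraries. RPL22L1 and RPS27L stood above their partners in every library. In these files this held for RPL7L1 over RPL7 as well (2.34 ± 0.146 in Lat-M1 and 2.00 ± 0.0677 in PA), although 13 pseudogenes of RPL7 can take its reads. Those partners were low: RPS27 averaged 13.4 TPM, RPL7 22.8 and RPL22 40.2 over all libraries, beside a median of 286 for tested members. Whether reads lost to other genes lowered them was not tested.

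**Figure D2:**
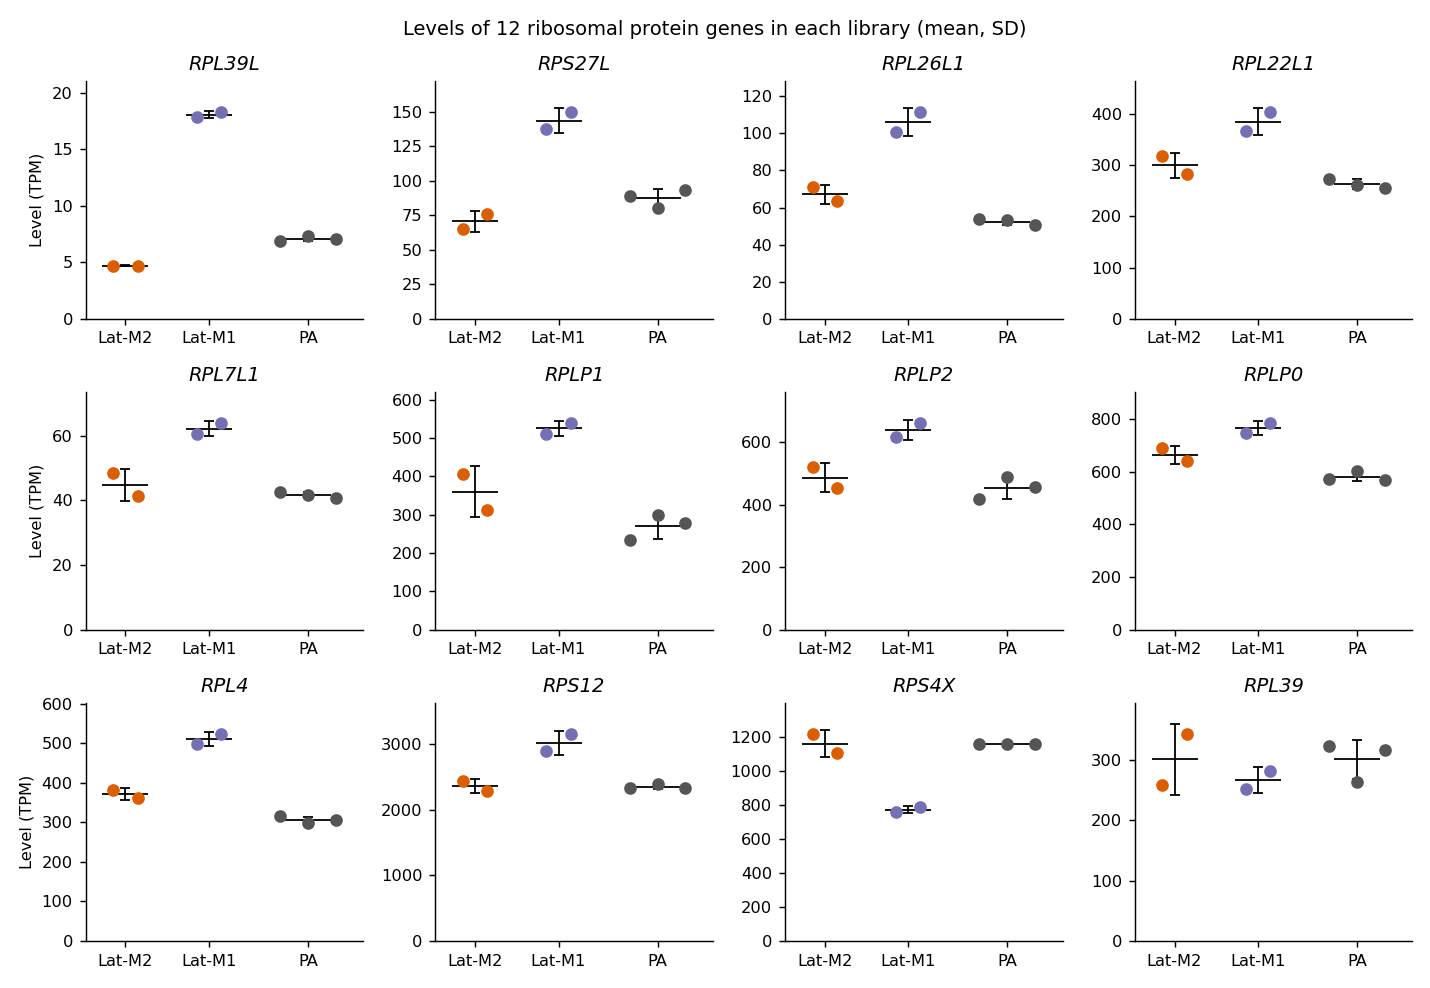
Level in TPM of 12 members in each library (points; line and bar, mean and SD; linear axes that begin at 0), for Lat-M2 (n = 2), Lat-M1 (n = 2) and PA (n = 3). The 5 paralogs and the 3 stalk genes are highest in both Lat-M1 libraries, RPS4X is lowest there, and RPL39 overlaps between groups.

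A smaller part of the remaining members moved, nearly all upward in TPM and in both directions after scaling. Of all genes, 33.2% were higher and 11.6% lower in TPM, and 23.9% and 23% after scaling. Of the 8 other members at the nascent chain's exit tunnel, 3 rose in TPM, and after scaling 2 rose and 1 fell. RPL4, which lines the tunnel, had 498 and 523 TPM in Lat-M1, against 315, 299 and 307 TPM in PA, a log2 fold change of 0.73 ± 0.055 (adjusted p = 5.63e-05, limma), or 0.55 after scaling. RPL5 and RPL11, which carry the 5S RNA and restrain MDM2 when assembly stalls, did not pass the test in TPM: RPL5 had 730.5 and 769.8 TPM in Lat-M1, against 778, 739 and 763 TPM in PA, and RPL11 had 601 and 629 TPM, against 558, 589 and 563 TPM in PA. After scaling RPL5 fell (-0.20 ± 0.041, adjusted p = 0.00900, limma). Of the 33 other large subunit members 14 rose in TPM, and after scaling 3 rose and 2 fell. RPL19 was called higher in TPM (0.17, adjusted p = 0.0294, limma) a call lost without any 1 of the Lat-M1 or PA libraries, and stood at -0.01 after scaling.

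In the small subunit, 6 of 13 head members rose in TPM, and after scaling 5 rose and 1 fell. Of 17 body members 6 rose and 1 fell in TPM, and 4 rose and 5 fell after scaling. RPS12 rose by 0.36 ± 0.060 (adjusted p = 0.00257, limma) and by 0.18 after scaling. RPS6, the S6 kinase substrate, had 691 and 736 TPM in Lat-M1, against 731, 764 and 728 TPM in PA, and fell only after scaling (-0.23 ± 0.055, adjusted p = 0.0143, limma). RPSA, which is also known as a laminin receptor precursor, had 102 and 112 TPM in Lat-M1, against 113, 108 and 108 TPM in PA, with a scaled change of -0.22 ± 0.051 (adjusted p = 0.0137, limma).

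RPS4X, an X-linked small subunit protein and the fourth most abundant member, was the largest fall. It had 757 and 786 TPM in Lat-M1, against 1158, 1155 and 1158 TPM in PA, so Lat-M1 held 0.667 of the PA level. The log2 fold change was -0.58 ± 0.058 in TPM (adjusted p = 0.000225) and -0.76 ± 0.035 after scaling (adjusted p = 1.42e-05, limma). Its 18 listed pseudogenes averaged 12.8 TPM in sum, 1.22% of its own level. Lat-M2 had 1214 and 1102 TPM, on either side of the PA libraries, and was called lower after scaling (-0.15 ± 0.035, adjusted p = 0.0341, limma).

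**Figure D3:**
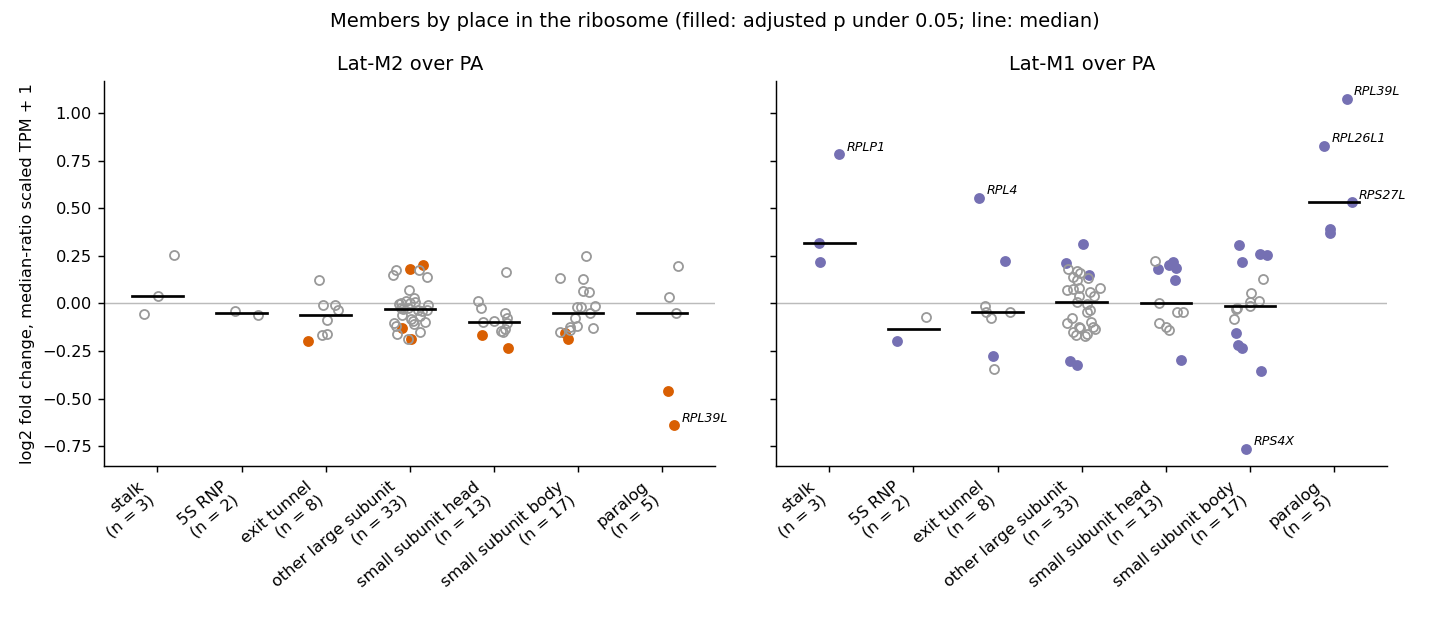
Log2 fold change of each tested member on median-ratio scaled values, by place in the ribosome, for Lat-M2 over PA and Lat-M1 over PA (filled, adjusted p under 0.05; open, not past it; line, median of the group). In Lat-M1 the stalk and the paralogs have medians of 0.32 and 0.53 and RPS4X lies at -0.76; in Lat-M2 RPL39L lies lowest at -0.64.

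Lat-M2 lay closer to PA. In TPM, 8 of 81 members were higher and 1 lower in Lat-M2, beside 12.7% of all genes higher and 2.24% lower (limma, adjusted p under 0.05). After scaling 2 were higher and 9 lower, beside 7.45% and 8.41%; other genes at 50 TPM or more had 14.8% higher and 2.78% lower in TPM, and 7.65% and 16.9% after scaling. The TPM count of 9 was 4, 2 and 2 without PA 1, 2 and 3, was 1 without Lat-M2-1 and 15 without Lat-M2-2, and the scaled count of 11 was between 1 and 6 without any 1 library. The members' median log2 fold change was 0.10 in TPM and -0.05 after scaling, with an SD of 0.14, against 0.34 for all genes.

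RPL39L was the member called lower on both scales. It had 4.64 and 4.70 TPM in Lat-M2, against 6.88, 7.31 and 7.04 TPM in PA (-0.51 ± 0.067, adjusted p = 0.00600 in TPM, and -0.64 ± 0.062, adjusted p = 0.00207 after scaling, limma). Both values lay below every PA library, as they did for 7.59% of all tested genes in TPM. RPS27L had 65.3 and 75.9 TPM in Lat-M2, against 89.2, 80.3 and 93.3 TPM in PA, and was called only after scaling (-0.46 ± 0.10, adjusted p = 0.0345; -0.31 ± 0.092, adjusted p = 0.0643 in TPM, limma). RPL6 and RPL9, both large subunit proteins, were the 2 members called higher on both scales. RPL6 had 144 and 127 TPM in Lat-M2, against 110, 103 and 104 TPM in PA, a log2 fold change of 0.36 ± 0.0685 (adjusted p = 0.0191, limma) and 0.20 after scaling. RPL9 had 93.0 and 80.3 TPM in Lat-M2, against 67.9, 66.5 and 71.1 TPM in PA (0.33 ± 0.075, adjusted p = 0.0301, limma; 0.18 after scaling). RPL6 lost its call without PA 2, PA 3 or Lat-M2-1, and RPL9 without any library other than Lat-M2-2. RPS2, at 364 and 380 TPM in Lat-M2 against 262, 291 and 290 TPM in PA, was higher in TPM (0.41 ± 0.070, adjusted p = 0.0144, limma) and lost its call after scaling (adjusted p = 0.0539) and without Lat-M2-1. RPS14, with 495 and 534 TPM in Lat-M2 against 429, 403 and 436 TPM in PA, and RPS16, with 368 and 357 TPM in Lat-M2 against 273, 297 and 301 TPM in PA, were also higher in TPM and not past the test after scaling (adjusted p = 0.261 and 0.0968, limma). The stalk genes did not pass in Lat-M2: RPLP1 had 407 and 313 TPM (0.41 ± 0.14, adjusted p = 0.103, limma). Both values lay above the PA libraries, as they did for 42.2% of all tested genes in TPM. Among paralogs RPL26L1, at 70.9 and 63.4 TPM, was called higher in TPM (0.35 ± 0.073, adjusted p = 0.0245, limma), but not after scaling (0.20, adjusted p = 0.0520) or without Lat-M2-1 or any of the PA libraries.

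Set against each other, Lat-M2 was lower than Lat-M1 in the paralogs tested as members and in the stalk. In TPM, 30 members differed (36% of all genes), 28 lower and 2 higher in Lat-M2, beside 20.1% and 16% of all genes. After scaling 35 differed (44.2% of all genes), 27 lower and 8 higher, beside 22.6% and 21.6%. Of other genes at 50 TPM or more, 30.5% were lower and 16.4% higher in TPM, and 35.2% and 24.7% after scaling. Of the lower ones 26 were called on both scales, all 5 paralogs and the 3 stalk genes among them. Without Lat-M1-2 the TPM count of 30 was 16, and without Lat-M1-1 the scaled count of 35 was 20. RPL39L differed most, with 4.64 and 4.70 TPM in Lat-M2 and 17.9 and 18.3 TPM in Lat-M1 (-1.75 ± 0.074, adjusted p = 5.58e-06, limma). RPS27L was next (-1.02 ± 0.10, adjusted p = 0.000317, limma), followed by RPL26L1 (-0.65 ± 0.080, adjusted p = 0.000845, limma). Among standard members the log2 difference was -0.46 ± 0.060 for RPL4, -0.48 ± 0.075 for RPS24 and -0.35 ± 0.066 for RPS12, with adjusted p of 0.00114, 0.00259 and 0.00551 in the limma fit. The stalk differences were -0.56 for RPLP1, -0.39 for RPLP2 and -0.20 for RPLP0, with adjusted p of 0.0328, 0.0172 and 0.0448 in the limma fit. That of RPLP0 lost its call when any library other than Lat-M2-1 was left out, that of RPLP1 without PA 3, Lat-M2-2 or either Lat-M1 library, and that of RPLP2 without Lat-M2-2 or Lat-M1-2. RPS4X was higher in Lat-M2 (0.58 ± 0.064, adjusted p = 0.000472, limma), as was RPL13A, with 499.6 and 480.9 TPM in Lat-M2 and 380 and 409 TPM in Lat-M1 (0.31 ± 0.067, adjusted p = 0.0100, limma), a call lost without Lat-M1-1.

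With the 4 Lat-M libraries taken as 1 group, 0 of 81 members passed against PA (limma; 2.9% of all genes did), and 23 had an unadjusted p under 0.05. After scaling 0 passed (1.24% of all genes) and 9 had an unadjusted p under 0.05. Without Lat-M2-2 the TPM count was 9, all higher. The smallest adjusted p was 0.0630, for RPS14. The same difference as a contrast in the fit of 3 groups, whose spread leaves out the distance between Lat-M1 and Lat-M2, called 38 higher and 1 lower. The shares of all genes for this contrast and for the unadjusted p are not given. These counts are therefore not a result about the members. The comparisons with PA share the 3 PA libraries.

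Members moved with the genes around them. For each member the median scaled change of the 10 nearest tested protein-coding genes on each side, other members left out, was set beside its own; this was chosen after the values were seen, and neighbouring members share neighbours. Across 81 members Pearson's r was 0.45 and Spearman's rho 0.57 for Lat-M2 over PA, and 0.75 and 0.79 for Lat-M1 over PA. Without the 5 paralogs they were 0.65 and 0.63, and 0.72 and 0.75. Other protein-coding genes at 50 TPM or more had the relation too, with rho of 0.48 for Lat-M2 and 0.49 for Lat-M1 across 2638 genes. These are descriptions across genes, which are not independent, and the difference between members and other genes was not tested.

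**Figure D4:**
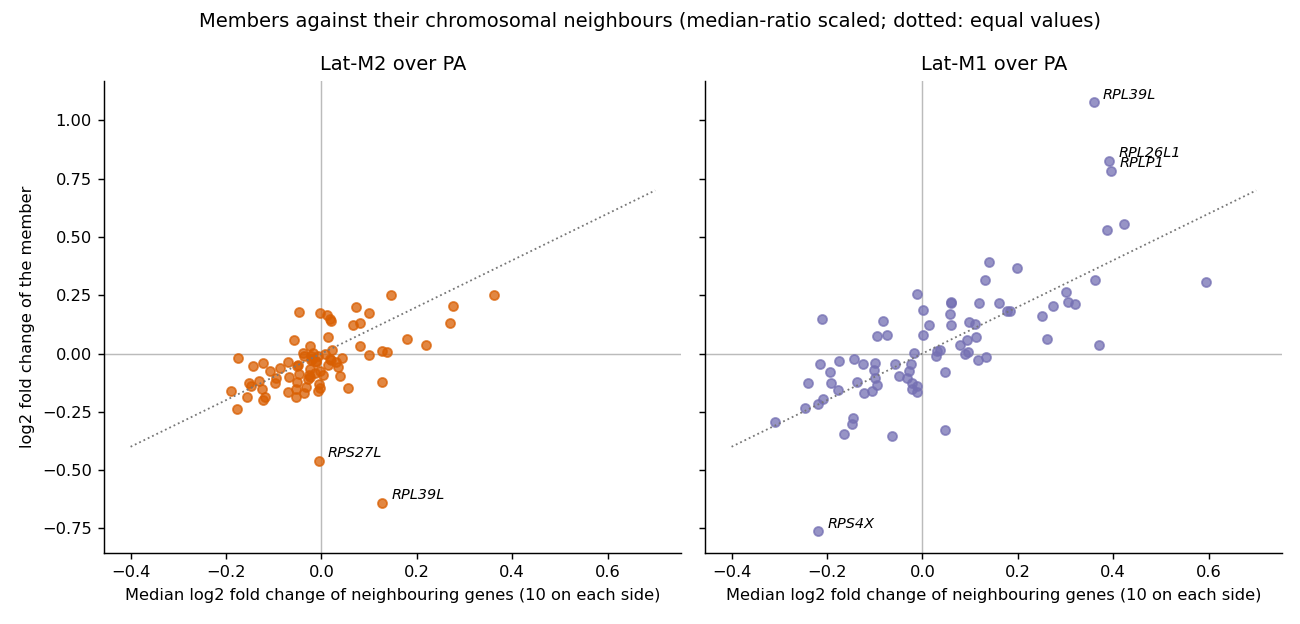
Scaled log2 fold change of each of 81 members against the median of its chromosomal neighbours, for Lat-M2 over PA and Lat-M1 over PA (dotted line, equal values). In Lat-M1 the cloud follows the line (r = 0.75), with RPL39L, RPL26L1 and RPLP1 furthest above it and RPS4X below it.

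By chromosome, the 3 members on chromosome 15, RPL4, RPLP1 and RPS27L, had a median scaled change of 0.55 in Lat-M1 over PA, beside 0.46 for 367 other tested protein-coding genes there. The 4 on chromosome 5 had 0.26 beside 0.29, the 5 on chromosome 6 had 0.20 beside 0.24, the 5 on chromosome 1 had -0.12 beside -0.12, and the 6 on chromosome 17 had -0.17 beside -0.09. The 12 on chromosome 19 had -0.08 beside 0.00, the 4 on chromosome 8 had 0.15 beside 0.03 and the 3 on chromosome 4 had 0.15 beside 0.05. The 3 on chromosome 16 had 0.00 beside 0.05 and the 4 on X had -0.25 beside -0.13. For some members the neighbours' change was a large part of their own: RPL4 had 0.55 beside 0.42, RPS27L had 0.53 beside 0.39, and RPLP2 had 0.32 beside 0.36. Others went well past theirs. RPL39L had 1.08 beside 0.36, RPL26L1 had 0.83 beside 0.39, RPLP1 had 0.78 beside 0.40 and RPS4X had -0.76 beside -0.22. In Lat-M2 over PA, RPL39L and its neighbours differed in sign (-0.64 beside 0.13), and RPS27L had -0.46 beside -0.01.

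**Figure D5:**
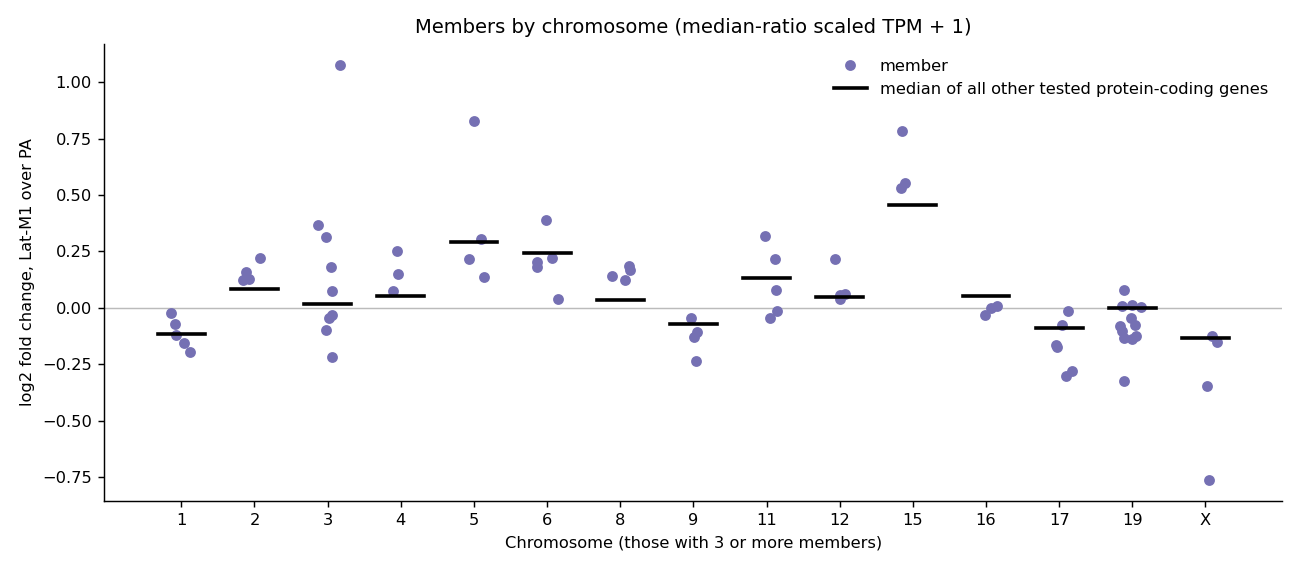
Scaled log2 fold change of members in Lat-M1 over PA (points) by chromosome, for chromosomes with at least 3 members, with the median of all other tested protein-coding genes of that chromosome (line). The 3 members on chromosome 15 lie at 0.53 to 0.78 near a line at 0.46, while RPS4X on X and RPL39L on 3 lie far from theirs.

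Members with and without a pyrimidine run at the start had close medians. In Lat-M1 over PA the scaled median was 0.00 for 55 tested members with a run and 0.06 for 11 without, and with paralogs left out it was 0.00 for 54 and -0.04 for 8. In Lat-M2 over PA it was -0.03 for 55 and -0.05 for 11. RPLP1 and RPL22L1, printed above with a run, and RPL26L1 and RPS27L, printed without one, all rose in Lat-M1.

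Other genes of the pathway were counted from lists set beside the members. Of all genes, 12.7% were higher and 2.24% lower in Lat-M2 over PA in TPM, and 33.2% and 11.6% in Lat-M1. After scaling these shares were 7.45% and 8.41% in Lat-M2, and 23.9% and 23% in Lat-M1. Among other genes at 50 TPM or more, 14.8% were higher in Lat-M2 and 45.8% in Lat-M1 in TPM. Whether the lists counted here and in the next paragraph differ from these shares was not tested. Of 4 ribosomal proteins listed under other symbols, 1 was higher in Lat-M2 and 2 in Lat-M1 in TPM. After scaling 1 was higher in Lat-M2, and 2 were higher and 1, RPL36AL, lower in Lat-M1. GNB2L1, the older symbol of RACK1, a signalling scaffold on the small subunit, averaged 543 ± 23.0 TPM in Lat-M2, 749 ± 18.6 in Lat-M1 and 419 ± 5.15 in PA (SD, n = 2, 2 and 3; log2 fold change over PA 0.37, adjusted p = 0.00745, and 0.83, adjusted p = 2.37e-05, limma). Of 18 translation factors known for TOP messengers, 5 were higher and 0 lower in Lat-M2 in TPM (3 and 1 after scaling, with a median of -0.013). In Lat-M1, 14 were higher and 2 lower in TPM (11 and 3 after scaling, with a median of 0.18 beside 0.00 for all genes). BTF3, a nascent chain chaperone, averaged 482 ± 20.0 TPM in Lat-M1 and 336 ± 5.94 in PA (0.52, adjusted p = 0.000335, limma). EEF1A1, which delivers transfer RNA, averaged 669 ± 25.8 in Lat-M1 and 508 ± 14.5 in PA (0.40, adjusted p = 0.000926, limma). The 2 that were lower in Lat-M1 were TPT1 and NAP1L1.

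Of 8 non-coding hosts of small nucleolar RNAs, 5 were higher and 2 lower in Lat-M1 in TPM, and 1 was higher and 2 lower after scaling; ZFAS1 (-0.44, adjusted p = 0.00128) and GAS5 (-0.18, adjusted p = 0.0345, limma) were the lower ones. In Lat-M2 their adjusted p lay between 0.131 and 0.852 in the limma fit. Of 14 tested genes of mTOR and MYC control, 5 were higher in Lat-M2 and 9 in Lat-M1 in TPM, none lower; after scaling 3 were higher and 1 lower in Lat-M2, and 6 higher and 1 lower in Lat-M1. LARP1, which binds TOP tracts, averaged 134 ± 11.9 TPM in Lat-M2, 180 ± 7.49 in Lat-M1 and 105 ± 1.83 in PA (0.34, adjusted p = 0.0207, and 0.77, adjusted p = 0.000124, over PA, limma). MYC, which drives ribosome production, averaged 114 ± 6.50 in Lat-M2, 129 ± 6.23 in Lat-M1 and 91.1 ± 2.79 in PA (0.32, adjusted p = 0.0195, and 0.50, adjusted p = 0.000670, over PA, limma). Of 15 genes of late ribosome assembly and export, 4 were higher in Lat-M2 and 10 in Lat-M1 in TPM; after scaling 1 was higher in Lat-M2, and 9 were higher and 3 lower in Lat-M1. RIOK1, a kinase of small subunit maturation, averaged 17.2 ± 2.93 TPM in Lat-M2, 36.4 ± 1.12 in Lat-M1 and 15.0 ± 0.567 in PA, with a log2 fold change over PA of 0.18 in Lat-M2 (adjusted p = 0.249) and 1.23 in Lat-M1 (adjusted p = 8.32e-05, limma).

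Genes of the response to stalled assembly were set beside RPS27L. CDKN1A, a cell cycle inhibitor, averaged 111 ± 7.63 TPM in Lat-M2, 332 ± 16.0 in Lat-M1 and 187 ± 2.95 in PA (over PA -0.75, adjusted p = 0.000730, and 0.82, adjusted p = 6.07e-05, limma). MDM2, the ligase that RPL5 and RPL11 bind, averaged 154 ± 11.2 in Lat-M2, 231 ± 8.99 in Lat-M1 and 178 ± 9.60 in PA, and passed in TPM for Lat-M1 (0.37, adjusted p = 0.00478, limma) but not for Lat-M2 (-0.21, adjusted p = 0.0967). After scaling MDM2 passed in both, lower in Lat-M2 (-0.36, adjusted p = 0.00613) and higher in Lat-M1 (0.20, adjusted p = 0.0144, limma). RPS27L had the same order of group means, 70.6 ± 7.50 in Lat-M2, 144 ± 8.81 in Lat-M1 and 87.6 ± 6.68 in PA.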

How the data were processed

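The deposited values are in TPM, as their equal sums of 1e+06 show. Per the labels, RNA came from an RNeasy extraction and sequencing used TruSeq v2 or NEBNext Ultra libraries; which library had which kit is not stated, so kit and group cannot be told apart. TopHat2 2.2.4 and hg19 are named by the submitters' processing notes; the quantifier and annotation are not given in the sources used here. TPM keeps no read totals, so the depth is unknown.

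Genes averaging 1 TPM or more were tested on log2(TPM + 1) with limma 3.58.1 in R 4.3.3 (trend and robust options, Benjamini-Hochberg at 0.05 over all genes), in a fit of 3 groups, or of 2 for Lat-M against PA. The scripts were tested on simulated data. Fold changes on this scale understate changes of low genes. Median-ratio scaling was run beside TPM. Alternatives were a pseudocount of 0.1, no filter, a minimum mean of 5 TPM, leaving out 4 structural RNAs, each library left out, the replicate number as a block, limma's duplicateCorrelation (statmod 1.5.0) and the Lat-M libraries alone. Chromosomes and gene order came from GENCODE v29, which matched 30947 listed genes, and starts from RefSeq. No 2 libraries held identical values.

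Members and lists were chosen with earlier results of these data known. Named were the 5 most abundant members, up to 6 largest rises and falls past the test in each comparison, the paralogs, stalk genes, RPSA, RPL5, RPL11, RPS6, RPL22 and RPL39, and up to 4 genes of each other list. RPL36A, RPL21, RPL26, RPL7, RPS27, PAX8, KRT8, KRT18, LHX1, PAX2 and CA9 were added after their values were seen. Some items that this rule names are not reported here.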

Additional observations from a re-analysis of the deposited data

Results flagged for a closer look

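In 5 of 81 members (6.17%) both Lat-M2 libraries lay on one side of every PA library and both Lat-M1 libraries on the other, as they did in 9.4% of all tested genes. Since this choice itself separates Lat-M2 and Lat-M1, the differences between them are given as values, with no test (log2 of TPM + 1, Lat-M2 minus Lat-M1). RPL39L had the largest, -1.75, with -0.51 over PA in Lat-M2 and 1.24 over PA in Lat-M1. RPS27L differed by -1.02, with -0.31 in Lat-M2 and 0.71 in Lat-M1 over PA. RPL31, a large subunit protein, differed by -0.44, with 178 and 173 TPM in Lat-M2, 233 and 246 TPM in Lat-M1 and 181, 182 and 180 TPM in PA. RPL13A differed the other way, by 0.31, with 0.17 in Lat-M2 and -0.15 in Lat-M1 over PA. RPS29 differed by 0.20, with 0.08 in Lat-M2 and -0.12 in Lat-M1 over PA. No named member had 1 Lat-M library far from the other 3 by Dixon's criterion. Where Lat-M2 and Lat-M1 differ, that difference widens the range, so the criterion could hardly single out a library within a pair.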

How the results depend on the processing

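Of 39 called results of named members, 39 held with a pseudocount of 0.1 and 39 with a minimum mean of 5 TPM; 31 held and 8 lost the call with no filter, and 31 held and 7 lost it under median-ratio scaling. RPL19 in Lat-M1 over PA turned to -0.012 under that scaling and to -0.033 without 4 structural RNAs. The log2 ratio of summed levels of Lat-M2 over PA was 0.092 in TPM but -0.062 under scaling and -0.013 without those RNAs, and that of Lat-M1 over PA moved to 0.021 and 0.00051. Members called in Lat-M2 over PA numbered 9, but 4 with no filter and 2 with the replicate block, and those in Lat-M2 over Lat-M1 numbered 30, but 19 with the block. With 1 library left out, the counts ran between 27 and 39 (Lat-M1 over PA), 1 and 15 (Lat-M2 over PA), 16 and 28 (Lat-M2 over Lat-M1) and 0 and 9 (Lat-M over PA); scaled, they ran between 15 and 41, 1 and 6, and 20 and 35. For Lat-M over PA the contrast in the fit of 3 groups called 39, and 0 were called with duplicateCorrelation. The scaled runs with a library left out or a block were added after the data were seen; the block left 1 call in Lat-M2 over PA. Replicate numbers did not pair the libraries (residual correlations -0.082 to 0.031), and the block gave 28 calls for Lat-M1 over PA. The causes of these moves were not tested. An omission that leaves 1 library in a pair assumes that it varies like the others.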
